A study of Mus musculus with 9 samples.

Results

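The *Sox* genes encode transcription factors that share an HMG box, a domain that binds the minor groove of DNA and bends it. The family is divided into groups by sequence. *Sox2* (group SoxB1) acts with OCT4 in the network that holds embryonic stem cells (ESCs) pluripotent and marks neural progenitors, and *Sox21* (SoxB2) counteracts the SoxB1 factors in the nervous system. *Sox4* and *Sox11* (SoxC) act in differentiating neurons and mesenchyme. *Sox8*, *Sox9* and *Sox10* (SoxE) act in the testis, cartilage and neural crest, and *Sox7*, *Sox17* and *Sox18* (SoxF) in endoderm and endothelium. Promoters of such developmental regulators are often CpG islands within long unmethylated domains, called canyons when they span several kilobases, whose edges are set between methylated and unmethylated DNA. DNMT3A and DNMT3B are the methyltransferases that place new methylation in the early embryo, while DNMT1 copies existing methylation at replication.

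These 10 *Sox* genes were compared, out of 14182 protein-coding genes in the part of the genome for which all genotypes were analysed, to place *Sox2*, the study's example of a locus, within its family. The members were chosen by name and not by a value. For each gene the CpGs within 1 kb of the transcription start site (TSS), in the gene body and in 15 kb on either side were used when covered by at least 3 reads in every genotype. Methylation was measured by whole genome bisulfite sequencing in J1 ESCs, a mouse line of the 129S4/SvJae strain grown in serum with LIF. WT ESCs, ESCs without *Dnmt3a* (*Dnmt3a* KO) and ESCs without *Dnmt3b* (*Dnmt3b* KO) had 3 libraries each, and the libraries of a genotype had been merged into 1 table. Each value below is therefore 1 pooled value per genotype without replicate error, no test across replicates was possible, and differences that come from the genotype or from the line grown from it cannot be told apart. Intervals are 95% intervals of read shares (Wilson) or of their differences (Newcombe) and cover counting error only. Over a region the reads were summed over its CpGs, so that a read over several CpGs counts at each of them. The intervals of regions are therefore narrower than the counting error. Bisulfite does not separate methylcytosine from hydroxymethylcytosine.

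The tables covered a CpG with a median of 22 reads in WT, 20 without *Dnmt3a* and 21 without *Dnmt3b*, and the loci of the 10 genes with a mean of 19.9, 18.7 and 20.03 reads over 6277 CpGs. In *Dnmt3a* KO ESCs 12 CpGs in a row within *Dnmt3a* had no read, over 401 bp in which the other genotypes had a mean of 24.1 reads. In *Dnmt3b* KO ESCs 30 CpGs in a row within *Dnmt3b* had none over 1729 bp, against 28.9 reads in the others. The longest such run in WT ESCs was 6 CpGs in *Dnmt3a*, where the KO tables had a mean of 2.0 reads as well.

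To show what the change looked like at the level of the sequence, a window of 300 bp was taken from each locus. It was the one with the largest difference between WT and *Dnmt3a* KO ESCs. Only windows with at least 5 CpGs that overlap no annotated exon were searched. The windows of *Sox2* and of the 3 other genes with the largest differences follow, on the plus strand of mm9, with the CpGs in capitals. They were picked for their difference, so that their values are examples and no measure of the loci.
*Sox2*, chr3:34561010-34561309, in an intron of the noncoding gene *Sox2ot*: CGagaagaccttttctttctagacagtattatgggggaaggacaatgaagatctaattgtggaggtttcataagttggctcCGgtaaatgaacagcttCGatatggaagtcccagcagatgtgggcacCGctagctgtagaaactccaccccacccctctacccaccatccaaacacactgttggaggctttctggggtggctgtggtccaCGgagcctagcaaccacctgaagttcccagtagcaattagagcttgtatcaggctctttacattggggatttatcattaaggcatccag
*Sox7*, chr14:64560598-64560897, intergenic: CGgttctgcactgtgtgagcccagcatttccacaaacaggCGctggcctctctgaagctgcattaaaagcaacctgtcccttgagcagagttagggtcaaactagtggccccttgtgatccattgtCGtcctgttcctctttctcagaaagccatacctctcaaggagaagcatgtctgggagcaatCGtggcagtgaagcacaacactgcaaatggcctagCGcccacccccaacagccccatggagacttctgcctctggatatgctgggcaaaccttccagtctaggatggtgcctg
*Sox9*, chr11:112634024-112634323, intergenic: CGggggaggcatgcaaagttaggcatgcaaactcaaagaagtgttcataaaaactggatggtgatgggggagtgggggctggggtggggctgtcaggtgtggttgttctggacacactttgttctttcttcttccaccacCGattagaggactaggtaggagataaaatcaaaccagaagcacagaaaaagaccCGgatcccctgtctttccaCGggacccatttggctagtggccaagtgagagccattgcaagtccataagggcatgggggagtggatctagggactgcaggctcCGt
*Sox8*, chr17:25705352-25705651, in an intron of *Sox8*: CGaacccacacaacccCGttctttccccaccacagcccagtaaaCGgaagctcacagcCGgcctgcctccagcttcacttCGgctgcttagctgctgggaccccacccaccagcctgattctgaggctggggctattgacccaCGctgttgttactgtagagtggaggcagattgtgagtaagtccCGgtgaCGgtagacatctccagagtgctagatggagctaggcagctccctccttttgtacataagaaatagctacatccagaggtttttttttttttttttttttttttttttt

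The *Sox2* window, centered 12.2 kb downstream of the TSS, had a mean methylation of 98.8% in WT, 8.81% without *Dnmt3a* and 80.7% without *Dnmt3b*. Its 5 CpGs were covered by a mean of 9.2, 11 and 10.4 reads, so that each single CpG was measured coarsely. In *Dnmt3a* KO ESCs the 5 CpGs had 7.69%, 18.2%, 18.2%, 0% and 0%. The *Sox7* window, 1.76 kb upstream of the TSS, was better covered, with a mean of 26.2, 34.2 and 38.0 reads, and went from 89.8% in WT to 2.32% without *Dnmt3a* and 64.7% without *Dnmt3b*. The *Sox9* window, 9.36 kb upstream, had 96.2%, 11.7% and 59.7% in the same order. Its last 3 CpGs kept between 27.9% and 48.6% without *Dnmt3b*, whereas its first CpG had 100%, from 9 reads. The *Sox8* window, with 7 of its 8 CpGs measured, had 95.5%, 12.1% and 82.0%. These CpGs had a mean of 20.3, 9.43 and 9.14 reads, so that single CpGs were measured coarsely in the KOs here too. In all of these windows DNA that was nearly fully methylated in WT ESCs had lost most of its methylation without *Dnmt3a* and kept most of it without *Dnmt3b*. The windows were picked for the difference in *Dnmt3a* KO ESCs alone, so that they cannot compare the KOs.

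*Sox2* lies on chromosome 3 from 34548927 to 34551383 (mm9, plus strand) as 1 exon within *Sox2ot*. Its TSS was free of methylation in every genotype, with 0.06% in WT, 0.39% without *Dnmt3a* and 0.33% without *Dnmt3b* over 141 CpGs, and its body was at 0.44%, 0.47% and 0.11%. The flanks, with 715 CpGs, had 33.1% in WT, 4.34% without *Dnmt3a* and 21.5% without *Dnmt3b*. As a share of reads, the flanks of *Sox2* differed from WT by -27.7 percentage points in *Dnmt3a* KO (interval -28.6 to -26.9) and by -10.5 in *Dnmt3b* KO ESCs (-11.6 to -9.52). The plot of single CpGs at *Sox2* shows that WT methylation was arranged in blocks around an unmethylated center, and that most of these blocks were nearly gone without *Dnmt3a*.

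**Figure D1:**
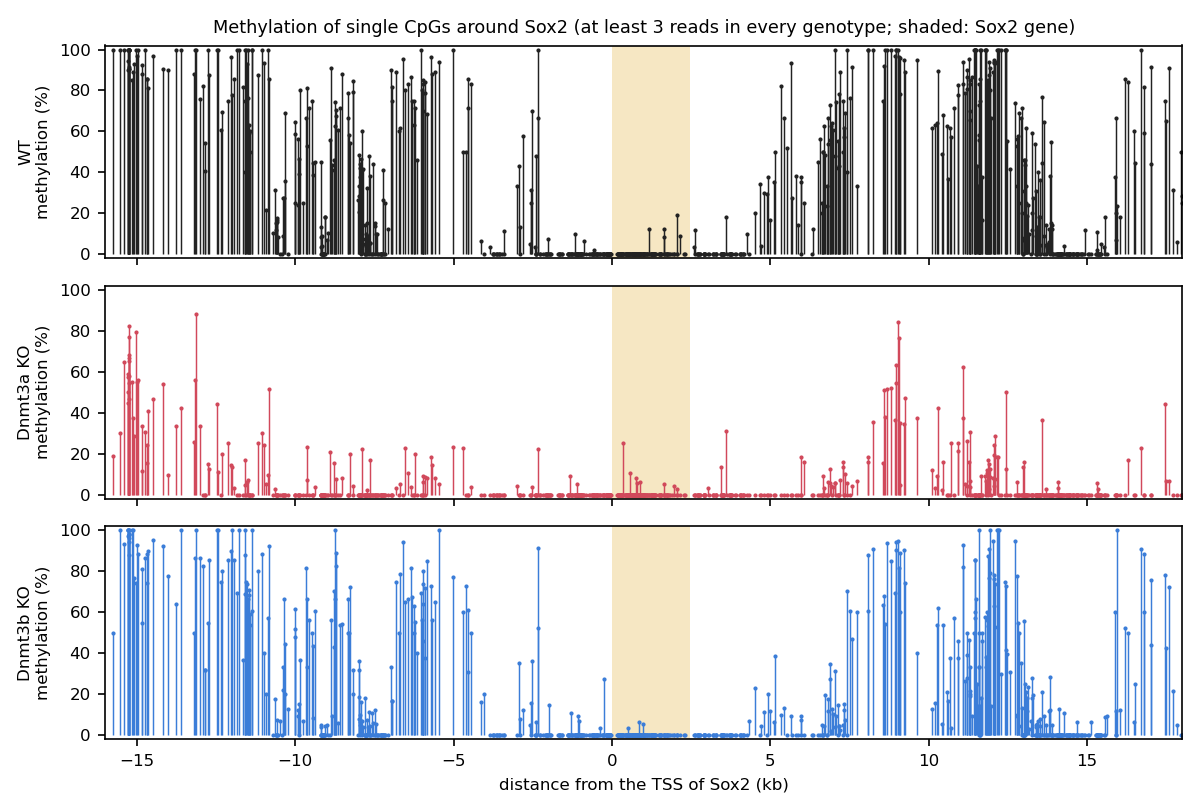
Methylation of single CpGs (percent of reads) against the distance from the TSS of *Sox2* (kb), with 1 panel per genotype and the gene shaded. Blocks of methylated CpGs on both sides of the gene in WT ESCs are mostly at or near 0 in *Dnmt3a* KO ESCs and partly lower in *Dnmt3b* KO ESCs, while the CpGs over the gene are near 0 in every genotype.

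Upstream of *Sox2* the mean methylation of the first 5 kb was 6.23% in WT, 0.49% without *Dnmt3a* and 4.54% without *Dnmt3b*, and that of the next 5 kb was 38.5%, 2.30% and 25.1%. The outermost 5 kb had 67.6%, 13.5% and 60.1%. The downstream side differed more from WT in *Dnmt3b* KO ESCs than the upstream side. The first 5 kb past the gene had 23.8% in WT, 1.73% without *Dnmt3a* and 4.51% without *Dnmt3b*. The next 5 kb had 82.6%, 15.6% and 54.9%, and the last 5 kb 16.2%, 1.07% and 9.78%. In the *Sox2* locus the *Dnmt3b* KO value lay between WT and *Dnmt3a* KO ESCs in each of the 6 bins of 5 kb. The bin closest to the gene on its downstream side was the one in which the KO values were most alike. *Sox2ot* has annotated starts 11.5 to 12.8 kb upstream of the *Sox2* TSS, and 6.43 and 15.2 kb downstream of it.

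*Sox2* kept the smallest part of its WT level. In *Dnmt3a* KO ESCs the *Sox2* flanks held 13.1% of their WT level, while the flanks of the other 9 members held 47.1% to 58.9% and the median over 14159 genes was 57.1%. This was the lowest share among those genes, which are the ones with a flank level of at least 20% in WT and at least 20 CpGs. In *Dnmt3b* KO ESCs the *Sox2* flanks held 65.0%, the other members 86.3% to 93.4%, and the median gene 90.4%, which ranked *Sox2* at place 4. *Sox2* was the example shown by the study, so that its place is a description and was not tested.

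The flank level of *Sox2* was also the lowest of the members in WT. The CpGs with at least 50% methylation in WT were therefore compared alone, over the gene and its flanks. The 243 such CpGs of *Sox2* had 80.0% in WT, 11.8% without *Dnmt3a* and 54.4% without *Dnmt3b*. As read shares these were 79.8% (78.6 to 80.9), 13.6% (12.7 to 14.6) and 53.4% (52.0 to 54.7). The other 9 members lay between 86.5% and 92.1% in WT, 41.8% and 53.4% without *Dnmt3a*, and 74.6% and 83.7% without *Dnmt3b*. The medians over 14180 genes were 91.2%, 53.2% and 82.8%. *Sox2* was the lowest of all these genes without *Dnmt3a* and at place 8 without *Dnmt3b*. The other members were spread within the lower and middle part of the distribution of all genes, with *Sox18* the lowest of them at 41.8% in *Dnmt3a* KO ESCs and *Sox11* the highest at 53.4%.

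**Figure D2:**
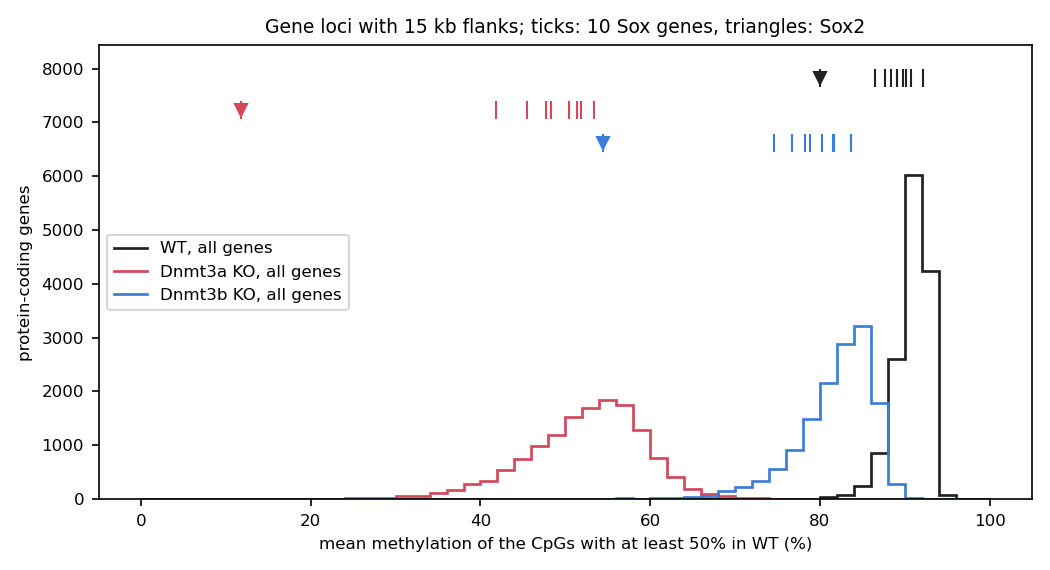
Distribution over 14180 protein-coding genes of the mean methylation of CpGs with at least 50% in WT (percent, horizontal axis; number of genes, vertical axis), by genotype, with the 10 *Sox* genes as ticks and *Sox2* as a triangle. *Sox2* at 11.8% in *Dnmt3a* KO ESCs stands far below the other *Sox* genes shown, which lie between 41.8% and 53.4%.

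Single CpGs gave the same order of the KOs. A CpG was called lower when the whole interval of its difference from WT lay beyond 20 percentage points. In *Dnmt3a* KO ESCs this was so for 1234 of 5963 CpGs in the 10 loci (20.7%), while 27.3% of all CpGs of the shared part of the genome and 28.6% of those in the loci of protein-coding genes were called. Many CpGs of these loci were unmethylated in WT and could not be lower. Of the 2848 CpGs with at least 50% in WT, 1209 (42.5%) were called, against 30.5% of such CpGs in the shared part. The *Dnmt3b* KO table had 156 CpGs (2.62%) called, against 2.41% of all CpGs and 2.45% of those in gene loci, and 145 (5.09%) of the CpGs methylated in WT, against 2.67%. At *Sox2* 206 of the 243 methylated CpGs (84.8%) were called in *Dnmt3a* KO ESCs and 44 (18.1%) in *Dnmt3b* KO ESCs. The other members had from 25.8% at *Sox11* to 51.3% at *Sox18* without *Dnmt3a*, and from 1.26% to 5.08% without *Dnmt3b*. In the other direction, 0 of the 5963 CpGs were higher without *Dnmt3a*, against 0.0102% of all CpGs, and 8 (0.134%) without *Dnmt3b*, against 0.0895%, of which 3 lay at *Sox10*. With 30 percentage points in place of 20, 813 CpGs of the loci (13.6%) were lower without *Dnmt3a*, against 16.1% of all CpGs, and 66 (1.11%) without *Dnmt3b*, against 0.95%. With 10 percentage points these were 1797 (30.1%), against 42.4%, and 367 (6.15%), against 6.06%. The number of CpGs called also depends on their reads, which are few at a single CpG.

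Across the family, the flanks of all 10 genes were lower than in WT in both KOs, and lower without *Dnmt3a* than without *Dnmt3b*, with every interval of the difference in read share below 0. This was so of nearly every gene: the interval lay below 0 in 14179 of 14182 genes (100.0%) for *Dnmt3a* KO against WT, in 14076 (99.3%) for *Dnmt3b* KO against WT, and in 14179 (100.0%) for *Dnmt3a* KO against *Dnmt3b* KO. Counted as single sides, 16 of 20 flanks were lower by more than 20 percentage points in *Dnmt3a* KO ESCs, against 94.3% of the flanks of all genes. Without *Dnmt3b* this was so for 0 of 20, against 0.187%. The 4 sides short of the limit were both sides of *Sox11* (-17.3 upstream and -17.2 downstream) and the upstream sides of *Sox4* (-18.6) and *Sox17* (-19.0). The median flank difference of the members was -28.8 percentage points in *Dnmt3a* KO ESCs, beside -31.8 over all genes, and -6.79 in *Dnmt3b* KO ESCs, beside -7.06. The WT level of the members' flanks was lower too, with a median of 59.7% against 77.6%. In read share, *Sox7*, *Sox10*, *Sox9* and *Sox18* differed from WT by -38.1, -36.6, -35.8 and -35.5 percentage points in *Dnmt3a* KO ESCs, and their neighboring intervals overlap. The other members lay between -30.3 (*Sox21*, -31.8 to -28.8) and -25.7 (*Sox11*, -27.4 to -23.9), separate from *Sox18* (-37.1 to -33.9). Within this lower series neighboring intervals overlap as well. The break belongs to the read share, and was read from intervals that are narrower than the counting error and hold no replicate error. As a mean over CpGs *Sox18* was at -30.3, next to *Sox17* at -28.8 and *Sox2* at -28.7, and *Sox11* was at -17.3.

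**Figure D3:**
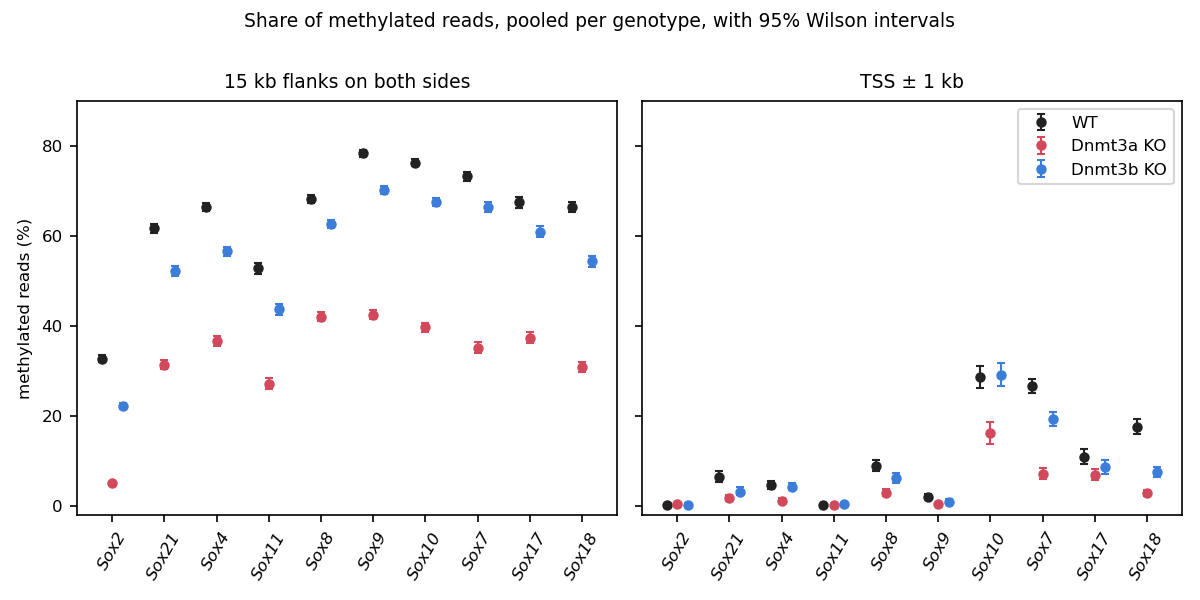
Share of methylated reads (percent, vertical axis) in the 15 kb flanks on both sides and within 1 kb of the TSS for 10 *Sox* genes, as 1 point per pooled genotype with 95% Wilson intervals. In the flanks the *Dnmt3a* KO points lie below the *Dnmt3b* KO points and these below WT for each gene, whereas at the TSS *Sox2* and *Sox11* are near 0 in every genotype.

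At the TSS, the members had a median methylation of 5.86% in WT, 1.956% without *Dnmt3a* and 5.12% without *Dnmt3b*, against 18.2%, 5.13% and 12.8% over all genes. No TSS region of the 10 was lower by more than 20 percentage points, 0 without *Dnmt3a* and 0 without *Dnmt3b*, while 41.4% and 2.79% of all genes were. The TSS regions of 8 members were at 11.4% or less in WT and could not be lower by 20, so that this count was open for *Sox7* and *Sox10* alone. The interval of the difference in read share lay below 0 in 8 of 10 TSS regions without *Dnmt3a*, against 95.4% of all genes. Without *Dnmt3b* this was so in 6 of 10, against 73.7%. The exceptions in both KOs were *Sox2* and *Sox11*, which were near 0 in WT, and in *Dnmt3b* KO ESCs also *Sox4* and *Sox10*. The reference sequence at these TSSs is rich in CpGs, with a median of 63.2 per kb against 32.5 over all genes and a ratio of observed to expected CpGs of 0.739 against 0.494. *Sox11* had the most with 103 per kb, *Sox17* the fewest with 31.0 per kb, and *Sox10* the lowest observed to expected ratio of 0.475.

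The stretch of low methylation at each TSS was measured as the run of CpGs whose running mean over 5 CpGs stayed under 10%. Its length is given in base pairs for each pooled genotype. In *Sox2* it was 6458 bp in WT, 12347 bp without *Dnmt3a* and 7113 bp without *Dnmt3b*. Of 14182 genes *Sox2* had the stretch at place 2 in WT, at place 1 without *Dnmt3a* and at place 4 without *Dnmt3b*. Both edges lay further out without *Dnmt3a*, at 4598 in place of 2193 bp upstream of the TSS and at 7748 in place of 4264 bp downstream. The upstream end in WT was set by 1 CpG with 14 of 21 reads methylated, beside CpGs without a methylated read. The bin from 3 to 2 kb upstream, which holds this CpG, was at 18.8% in WT and 1.03% without *Dnmt3a* over 25 CpGs. Further out, the bin from 4 to 3 kb upstream was at 3.43% in WT. Under limits of 15% and 20% the WT stretch was 6794 and 6943 bp, so that its length did not rest on this CpG alone. Without *Dnmt3b* the upstream edge was at the same CpG as in WT, and the downstream edge at 4919 bp. *Sox2* was the longest of the 10 in every genotype under each of the 13 ways in which the length was computed. The genes with the most similar lengths in the 3 genotypes, by the distance of log2 lengths over 8681 genes, were *Mllt6* (5640, 9819 and 6681 bp), *Bcl11a*, *Tgif1*, *Brd2* and *Jub*, whose lengths in *Dnmt3a* KO ESCs were 8515, 7910, 7892 and 7101 bp.

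**Figure D4:**
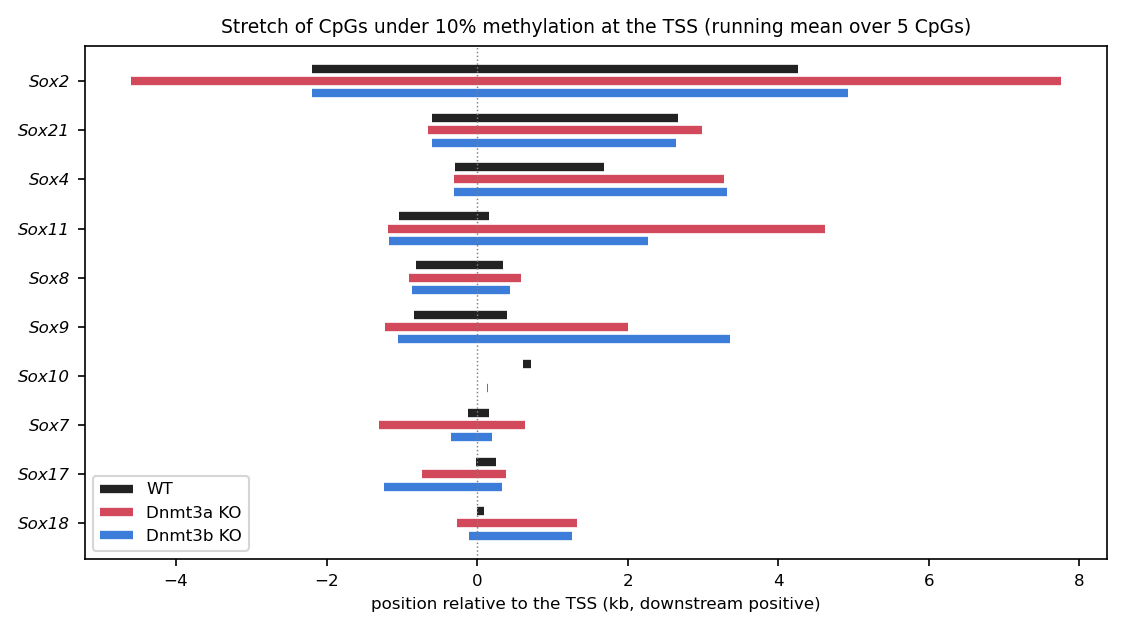
Extent of the stretch under 10% methylation relative to the TSS (kb, horizontal axis, downstream positive) for 10 *Sox* genes, with 1 bar per pooled genotype. The *Sox2* bar is the longest in every genotype and reaches 12.3 kb in *Dnmt3a* KO ESCs, and *Sox10* has no bar in *Dnmt3a* KO ESCs.

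The stretch was at least 1.5 times as long as in WT in 7 of 10 members in *Dnmt3a* KO ESCs (*Sox2*, *Sox4*, *Sox7*, *Sox9*, *Sox11*, *Sox17* and *Sox18*), against 59.6% of the 8750 genes that have a stretch in WT. Without *Dnmt3b* it was so in 6 of 10, the same genes without *Sox2*, against 21.8%. The median ratio to WT was 2.27 without *Dnmt3a* and 1.91 without *Dnmt3b* for the members, and 1.62 and 1.19 for all genes. Neither the count nor the median without *Dnmt3b* was stable. With at least 5 reads per CpG 4 members passed without *Dnmt3b*, against 20.1% of all genes, at a median ratio of 1.18, and with at least 10 reads 4 did, against 19.5%, at a median of 1.13. Under a limit of 15% these were 3 members, against 16.8%, and 1.05, and under 20% they were 1 member, *Sox7*, against 14.5%, and 1.07, while the median of all genes was between 1.17 and 1.18 in these 4 settings. In *Dnmt3a* KO ESCs 6 members passed with at least 5 reads (against 58.7% of all genes), 6 with at least 10 reads (against 58.3%), 6 under 15% (against 62.8%) and 4 under 20% (against 68.1%), where the members' median was 1.25 against 1.71 for all genes. Under a limit of 5% 5 members passed without *Dnmt3a*, against 58.2% of all genes, with medians of 1.53 and 1.65, and 4 without *Dnmt3b*, against 35.5%, with medians of 1.32 and 1.26. Canyons of the study are under-methylated regions of at least 3.5 kb. They were called with a hidden Markov model and not from this stretch, which 1 CpG can end. A stretch of at least 3.5 kb was reached by 1 member in WT (*Sox2*), against 0.395% of all genes. In *Dnmt3a* KO ESCs 4 members reached it (*Sox2*, *Sox4*, *Sox11* and *Sox21*), against 4.31% of all genes, and in *Dnmt3b* KO ESCs 3 did (*Sox2*, *Sox4* and *Sox9*), against 1.09%. With at least 5 or 10 reads per CpG *Sox9* reached it in WT as well, at 3963 bp, among 0.444% and 0.494% of all genes. Under a limit of 20% *Sox9* and *Sox11* did in WT, at 4250 bp and 3692 bp, among 1.04% of all genes. From the limit of 5% to that of 20% the count went from 1 to 6 members without *Dnmt3a* (against 1.49% to 9.99% of all genes) and from 1 to 4 without *Dnmt3b* (against 0.388% to 2.50%). Over the 13 ways of computing it, *Sox2* reached this length in every genotype. 

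The ends of a stretch can rest on single CpGs. In WT ESCs the downstream end of *Sox9* was set by a CpG with 3 of 4 reads methylated, that of *Sox11* by a CpG with 3 of 6 and that of *Sox18* by a CpG with 4 of 6, each beside CpGs without a methylated read. The stretch was therefore computed again from the share of reads over 5 CpGs, a measure chosen after seeing the data, in which a CpG of few reads counts less. The *Sox2* stretch was then 6458 bp in WT, 8080 bp without *Dnmt3a* and 7113 bp without *Dnmt3b*, at places 3, 18 and 4 of all genes, and a running mean over 3 CpGs gave 8126 bp without *Dnmt3a*, so that its length in *Dnmt3a* KO ESCs and its place 1 depend on the measure. A ratio to WT of at least 1.5 was then found in 7 of 10 members in each KO, the 6 genes that passed in both KOs before and *Sox21*, against 59.8% of all genes without *Dnmt3a* and 23.7% without *Dnmt3b*. With this measure the members of at least 3.5 kb were those named for the running mean over 5 CpGs under 10%, among 0.388%, 4.04% and 1.11% of all genes.

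*Sox21* (chr14:118632454-118636252, minus strand), the SoxB2 member, had a stretch of 3275 bp in WT, 3633 bp without *Dnmt3a* and 3247 bp without *Dnmt3b*. From read shares the WT stretch of *Sox21* was 709 bp, and those of the KOs were 3616 bp and 3247 bp. Without *Dnmt3b* it was longer than in WT in 5 of the 13 ways of computing it. Its TSS was at 4.43%, 1.41% and 1.70%, and its flanks at 52.8%, 27.1% and 46.3%. The first 5 kb past the gene had 26.5% in WT, 3.58% without *Dnmt3a* and 17.4% without *Dnmt3b*. In the 1 kb profiles these low values stand as separate low bins beyond a methylated block.

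*Sox11* and *Sox4*, the SoxC members, consist of 1 exon. *Sox11* was low over the whole gene. *Sox4* was low over most of it, but in WT had 26.8% from 3 to 4 kb past its TSS and 53.4% from 4 to 5 kb, where the gene ends. *Sox11* (chr12:28025562-28027574, minus strand) had a TSS at 0.27%, 0.31% and 0.32% and a body at 0.64%, 0.29% and 0.55%, and its flanks were at 42.0% in WT, 24.7% without *Dnmt3a* and 37.7% without *Dnmt3b*. Its stretch was 1196 bp in WT, 5796 bp without *Dnmt3a* and 3439 bp without *Dnmt3b*, the difference lying on the downstream side, where it reached 154 bp, 4617 bp and 2264 bp past the TSS. The body of *Sox11* was below 1% in WT as well. From read shares the *Sox11* lengths were 1224 bp, 3564 bp and 3325 bp, and under a limit of 15% in place of 10% the length without *Dnmt3b* was no longer above WT (ratio 0.997). The WT stretch of *Sox11* was 3137 bp with at least 10 reads and 3192 bp with a running mean over 7 CpGs, beside 3137 bp and 3317 bp without *Dnmt3b*. A ratio of 1.5 was missed without *Dnmt3b* in 6 of the 13 ways of computing it, and reached without *Dnmt3a* in all 13. The lowest ratio without *Dnmt3a*, 1.51, came with a running mean over 3 CpGs, at 1224 bp in WT and 1845 bp without *Dnmt3a*. Under a limit of 5% the *Sox11* lengths were 1196 bp in WT and 1835 bp without *Dnmt3a*. *Sox4* (chr13:29040788-29045582, minus strand) had a TSS at 4.45%, 1.90% and 4.22%, a body at 7.55%, 1.98% and 3.65%, and flanks at 55.8%, 31.7% and 52.1%. Its stretch was 1991 bp, 3584 bp and 3628 bp, again extended on the downstream side and at nearly the same end in both KOs, though under a limit of 5% both KO lengths were below WT (ratios 0.986 and 0.790). The upstream flank of *Sox4* held a further low region, seen in the 5 to 10 kb bin with 34.0% in WT, 22.7% without *Dnmt3a* and 28.6% without *Dnmt3b*.

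**Figure D5:**
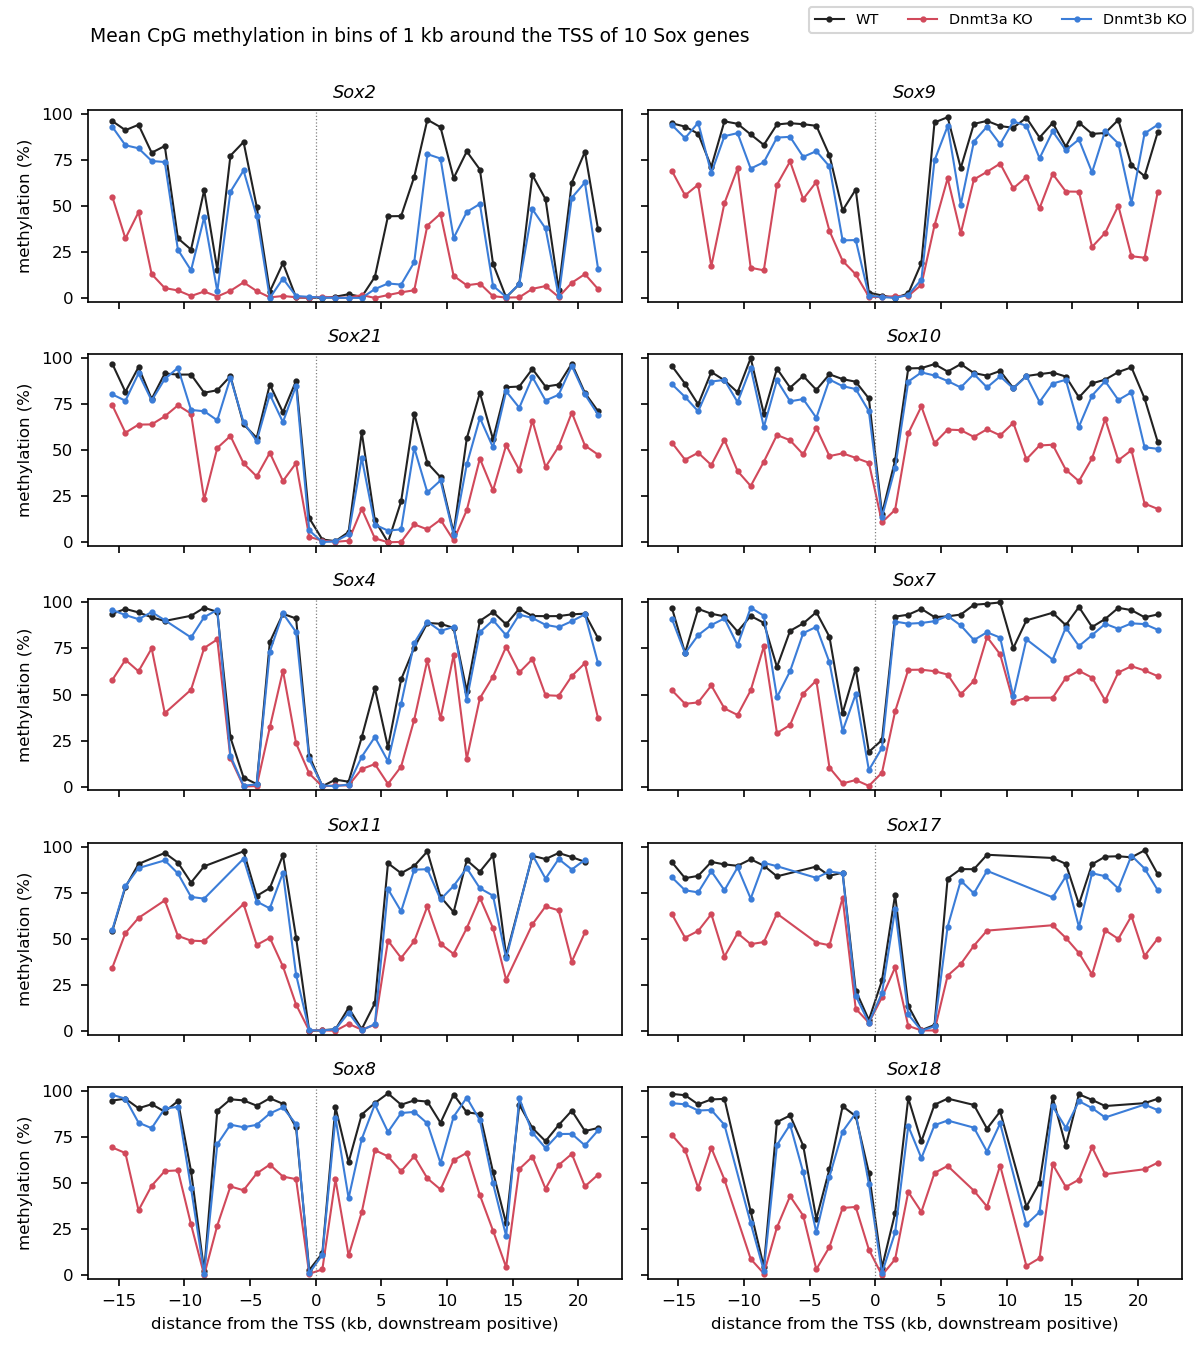
Mean CpG methylation (percent, vertical axis) in bins of 1 kb with at least 3 CpGs against the distance from the TSS (kb, downstream positive) for 10 *Sox* genes, 1 line per pooled genotype. The *Dnmt3a* KO line runs below the others in the flanks of each gene and stays nearest to 0 at *Sox2*, and all lines meet near 0 at the low regions around most TSSs.

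In the SoxE group the genes differed from each other. *Sox9* (chr11:112643538-112649074, plus strand) had a TSS at 1.96%, 0.51% and 0.81%, a body at 9.55%, 4.76% and 7.15%, and flanks at 73.7%, 38.9% and 64.7%. Its stretch was 1232 bp in WT, 3235 bp without *Dnmt3a* and 4405 bp without *Dnmt3b*, longer without *Dnmt3b* than without *Dnmt3a*. This order of the KOs turned in 3 of the 13 ways of computing the length, with a running mean over 7 CpGs (4686 bp without *Dnmt3a* and 4290 bp without *Dnmt3b*) and under limits of 15% (4764 bp and 4488 bp) and 20% (5162 bp and 4521 bp). With a minimum of 5 or of 10 reads the length in *Dnmt3a* KO ESCs was below WT (ratio 0.816 for both). The WT stretch was then 3963 bp, and the length of 4275 bp without *Dnmt3b* was near it, so that neither difference from WT at *Sox9* is firm. *Sox8* (chr17:25702837-25707631, minus strand) had a TSS at 7.28%, 2.01% and 6.01%, a methylated body at 54.9%, 24.7% and 47.9%, and flanks at 62.3%, 36.1% and 56.7%. Its stretch of 1152 bp, 1485 bp and 1312 bp differed little. *Sox10* (chr15:78985343-78994920, minus strand) was the member with the highest methylation at its TSS, at 25.5%, 16.0% and 22.9%. Its body was at 59.8%, 37.4% and 55.9% and its flanks at 73.8%, 39.6% and 66.0%. *Sox10* had almost no stretch under 10%, with 111 bp in WT, 0 bp without *Dnmt3a* and 11 bp without *Dnmt3b*, and these lengths rest on a few CpGs. The start of *Lmf1* lies 8.49 kb upstream of *Sox8*, and those of *Polr2f* and *1700088E04Rik* 23.1 and 23.2 kb past the *Sox10* TSS, so that these flanks include promoters of other genes.

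The SoxF genes had partly methylated TSS regions in WT ESCs and, at the TSS, short stretches under 10% that were longer in both KOs. *Sox7* (chr14:64562511-64569569, plus strand) had the largest TSS difference of the 10 members without *Dnmt3a*, with 22.2% in WT, 4.15% without *Dnmt3a* and 15.3% without *Dnmt3b*. The first 5 kb upstream of *Sox7* had 41.6% in WT, 5.20% without *Dnmt3a* and 30.7% without *Dnmt3b*, and the window printed above is part of it. Its body was at 63.8%, 36.6% and 59.9%, its flanks at 70.5%, 34.0% and 60.9%, and its stretch measured 274 bp, 1942 bp and 546 bp. With at least 5 reads per CpG the WT stretch of *Sox7* was 447 bp and its ratio without *Dnmt3b* 1.22 in place of 1.99. *Sox17* (chr1:4481009-4486494, minus strand), on the promoter with the fewest CpGs, had a TSS at 11.2%, 7.85% and 8.34%, a body at 10.5%, 4.03% and 7.96%, and flanks at 65.7%, 36.9% and 59.1%. The stretch at its TSS was 276 bp, 1122 bp and 1567 bp, but under a limit of 15% the WT stretch of *Sox17* was 1567 bp, the *Dnmt3a* KO length was below it (ratio 0.812) and the *Dnmt3b* KO length near it (ratio 1.04). Under 20% the ratios were 1.25 and 1.07. These values describe the annotated 5′ end. The part of *Sox17* with the most CpGs lay inside the gene, with 72 CpGs from 3 to 4 kb past the TSS at 0.43% in WT, 0.32% without *Dnmt3a* and 0.26% without *Dnmt3b*, and 68 CpGs from 4 to 5 kb at 3.30%, 0.30% and 2.47%. Between this low region and the TSS, 7 CpGs from 1 to 2 kb were at 74.0%, 34.5% and 66.1%. *Sox18* (chr2:181404541-181406345, minus strand) had a TSS at 11.4%, 2.02% and 8.03%, a body at 10.98%, 1.97% and 6.23%, and flanks at 57.1%, 26.9% and 50.2%. Its stretch was 103 bp in WT, 1584 bp without *Dnmt3a* and 1371 bp without *Dnmt3b*. Over all 13 ways of computing it, the WT stretch of *Sox18* ran from 73 to 1020 bp, and both KO stretches were longer than WT in each. The start of *Tcea2* lies 8.67 kb upstream of *Sox18* and *Prpf6* overlaps the locus.

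Gene bodies differed within the SoxE and SoxF groups. The bodies of *Sox7*, *Sox8* and *Sox10*, which were above 50% in WT, differed from WT by -27.3, -30.2 and -22.4 percentage points in *Dnmt3a* KO ESCs. The other 7 were at 10.98% or less in WT and could not be lower by 20. Thus 3 of 10 bodies passed 20 percentage points, against 89.3% of all genes, and in *Dnmt3b* KO ESCs 0 of 10, against 1.53%. The median body of the members was at 10.02% in WT, whereas that of all genes was at 80.4%.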

How the data were processed

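WGBS reads of J1 ESCs (3 libraries for each of 3 genotypes) were aligned to mm9 with BSMAP by the authors, filtered for technical biases with BSeQC (versions not given in the sources used here), and counted over CpGs with MOABS. The authors deposited counts of all and of methylated reads for each CpG, without normalization and merged over the 3 libraries, and the methylation ratio, a fraction from 0 to 1, which the authors rounded. The fraction was recomputed from the counts, and 0 CpGs differed by more than 0.001. The WT table, sorted by chromosome name as text, ends on chromosome 4, and its last, incomplete row was left out. What follows was not analysed in WT. Genes came from a GENCODE annotation of the same build.

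Ratios of CpGs that had 3 reads or more in all genotypes were averaged in each region. The stretch was searched within 50 kb of the TSS and had to come within 1 kb of it. Settings were varied one at a time (reads, weighting, widths, limits, running mean), and the stretch from read shares was added after seeing the data. Stretches and flank differences were tested on simulated data with 200 planted stretches. These had the same low level at every CpG, so that the test could not show how single methylated CpGs end a stretch. The genes named are the members, other *Sox* genes, neighbors, the deleted genes and the 5 genes with lengths nearest to *Sox2*. Members, lists and limits were chosen with earlier results of these data known. Python 3.11.15, NumPy 2.4.6, pandas 2.3.3 and matplotlib 3.10.9 were used.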

Additional observations from a re-analysis of the deposited data

How the results depend on the processing

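No paired analysis was possible because the 3 libraries of each genotype had been merged into 1 table, and for the same reason no library could be left out. Reads were thinned to the lowest mean depth of the genotypes, CpGs with more than 200 reads left out, or the most 5′ TSS taken. No family median of a methylation difference then moved beyond the interval of the reads pooled over the members, laid around that median. No median length ratio or count of CpGs moved by more than 1.5 times. The median flank difference in *Dnmt3a* KO ESCs, -28.8 percentage points, became -30.2 with reads as weights, -23.9 with 5 kb and -31.0 with 30 kb flanks. It became -34.3 without CpGs within 1 kb of any protein-coding TSS, that of the gene itself included. In *Dnmt3b* KO ESCs, -6.79 became -7.89 with at least 10 reads, -7.28 with reads required in that genotype alone, -8.87 weighted and -7.96 without CpGs near TSSs. The TSS difference in *Dnmt3a* KO, -3.18, became -4.35 weighted, -2.50 within 500 bp and -8.11 within 2 kb, and in *Dnmt3b* KO ESCs -1.95 became -1.09 with at least 5 reads and -2.70 within 2 kb. The body difference in *Dnmt3a* KO, -6.01, became -7.42 with at least 10 reads and -7.58 weighted, and in *Dnmt3b* KO ESCs -3.21 became -4.02 weighted. The median length ratio in *Dnmt3a* KO, 2.27, became 1.25 under a limit of 20%, and in *Dnmt3b* KO ESCs 1.91 became 1.18 and 1.13 with at least 5 and 10 reads, and 1.05 and 1.07 under limits of 15% and 20%. CpGs called lower by more than 30 percentage points were 813 without *Dnmt3a* (13.6% of the members' CpGs) and 66 without *Dnmt3b* (1.11%), and by more than 10 they were 367 in *Dnmt3b* KO ESCs (6.15%). The direction of single length ratios turned for *Sox9* in *Dnmt3a* KO (0.816 with at least 5 and 10 reads), for *Sox10* in *Dnmt3a* KO (1.12 with at least 10 reads, 4.17 with reads required in that genotype alone, 1.09 with a running mean of 7 CpGs) and in *Dnmt3b* KO ESCs (1.73 with reads in that genotype alone, 5.20 with 7 CpGs), for *Sox4* under 5% (0.986 and 0.790), for *Sox17* in *Dnmt3a* KO under 15% (0.812), and for *Sox11* in *Dnmt3b* KO ESCs under 15% and 20% (0.997 and 0.965). *Sox21* in *Dnmt3b* KO ESCs, at 0.991, was above 1 with a running mean over 3 CpGs (4.44), under 5% (3.91), 15% (1.01) and 20% (1.01), and from read shares (4.58). With the stretch from read shares, chosen after seeing the data, the median ratios were 2.57 and 2.47. The cause was not tested.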

Other observations

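The lowest levels at *Sox2* were confined to the surroundings of the gene. In bins of 10 kb, the *Dnmt3a* KO level was 1.38%, 3.74% and 3.42% in the 3 bins from 10 kb upstream to 20 kb downstream of the *Sox2* TSS, where WT ESCs had 22.1%, 16.8% and 34.1%. In the bins next to them it was 33.8% upstream and 31.4% downstream, against 80.2% and 77.0% in WT. From 30 to 100 kb upstream, 55.2% to 70.9% of the WT level was left in *Dnmt3a* KO ESCs, with a median of 62.5% over 7 bins. From 30 to 100 kb downstream it was 34.99% to 54.1%, with a median of 46.4%. The sides did not overlap, and this downstream median was the lowest among the 20 sides of the 10 loci, the next being 52.6% upstream of *Sox18*. In *Dnmt3b* KO ESCs the medians at *Sox2* were 93.4% upstream and 93.3% downstream, so that the lower share in *Dnmt3b* KO ESCs at *Sox2* lay near the gene. This was chosen after the values were seen, and was not tested.

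4 other *Sox* genes are in the shared part. *Sox12* (SoxC), with a TSS at 0.45% in WT, 0.26% without *Dnmt3a* and 0.06% without *Dnmt3b*, had a stretch of 3406 bp, 4384 bp and 4007 bp, and its flanks were at 48.3%, 23.6% and 40.9%. *Sox13* (SoxD) had a TSS at 2.83%, 0.97% and 2.13% and flanks at 75.9%, 39.1% and 65.1%. *Sox15* (SoxG) had a TSS at 18.2%, 1.86% and 6.31%, with a stretch of 198 bp, 1465 bp and 1143 bp, and its CpGs methylated in WT were at 89.0% in WT, 40.3% without *Dnmt3a* and 70.9% without *Dnmt3b*. *Sox30* (SoxH), a gene of the germ line, had the most methylated TSS of these, at 31.2%, 8.74% and 21.4%, which was lower by more than 20 percentage points in *Dnmt3a* KO ESCs. All 4 flanks held more of their WT level without *Dnmt3a* than those of *Sox2*, from 45.0% at *Sox15* to 58.0% at *Sox30*.

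*Sox3*, *Sox5*, *Sox6* and *Sox14* lie where WT was not analysed here. *Sox3*, the SoxB1 relative of *Sox2* on the X chromosome, had a TSS at 0.21% without *Dnmt3a* and 0.24% without *Dnmt3b*, a stretch of 4044 bp and 3224 bp, and flanks at 23.1% and 45.96%. *Sox14* (SoxB2) had flanks at 23.7% and 35.7% and a stretch of 1265 bp and 1596 bp. *Sox6* and *Sox5* (SoxD) were the more methylated of these 4 genes, with the TSS of *Sox6* at 10.3% and 34.9% and that of *Sox5* at 36.9% and 82.3%. In these 4 genes, as in the members, the flanks were lower without *Dnmt3a* than without *Dnmt3b*. *Sox1* was not analysed here.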
